A study of Mus musculus with 71 samples.

Results

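The genes examined here encode 8 enzymes that write or erase methylation of histone H3 at lysine 36 (H3K36) in mouse embryonic stem cells (mESCs). They were chosen by name: the methyltransferase genes Nsd1, Whsc1, Whsc1l1, Setd2 and Ash1l, and the demethylase genes Kdm2a, Kdm2b and Kdm4a. These are 8 of the 24138 genes named in the RNA-seq tables. Whsc1 and Whsc1l1 are listed in RefSeq as Nsd2 and Nsd3. Levels were compared between wild-type (WT) R1 mESCs and R1 mESCs that lack the linker histones H1c, H1d and H1e after a triple CRISPR/Cas9 knockout (H1-TKO), with 2 poly(A) RNA-seq libraries for each genotype. No agent was given to either group in these labels, and how many edited clones the H1-TKO libraries represent is not given in the sources used here. One H3K27me3 ChIP-seq peak list for each genotype was also read. The other ChIP-seq and ChOR-seq samples of the series were not analysed here.

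H3K36 methylation marks transcribed chromatin. NSD1, NSD2 (Whsc1), NSD3 (Whsc1l1) and ASH1L add the lower methylation states, and SETD2 travels with elongating RNA polymerase II and adds the trimethyl state over gene bodies. KDM2A and KDM2B bind CpG islands through a zinc finger and remove the lower states, and KDM4A removes the trimethyl state as well as H3K9 methylation. In embryonic stem cells KDM2B also recruits the Polycomb complex PRC1.1, and H3K36 methylation on a histone tail hinders PRC2, the enzyme of H3K27 methylation.

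The genotype of a library was taken from the name in its own table, where KO marks H1-TKO and R1 marks WT. The sample titles give the opposite genotype for all 4 libraries, and with the titles every direction below would be reversed. Each library equalled 1 same-named column of the study's per-library table in all of the 1999 rows read (100%, tolerance 0.001). Recovered reads numbered between 8292007 and 10538507 in the WT libraries and between 6951619 and 7346122 in the H1-TKO libraries. The WT libraries were less alike: 13.3% of the tested accessions were at least 2-fold apart between them, against 6.52% between the H1-TKO libraries. In WT replicate 2 a single non-coding accession took 11.8% of the reads, against 1.98 to 2.08% in the other libraries. The 3 knocked-out genes had low counts throughout, and many histone mRNAs are known to carry no poly(A) tail. Normalized counts of H1c (listed as H1f2) were 11.6 and 56.7 in WT against 18.7 and 7.4 in H1-TKO mESCs. Those of H1d (H1f3) were 3.9 and 41.4 in WT, with 1.1 and 0.0 in H1-TKO, and those of H1e (H1f4) were 5.4 and 19.6 in WT, with 0.0 and 2.1 in H1-TKO. H1d and H1e were thus lower in both libraries named H1-TKO and H1c overlapped, on counts too few to settle the genotypes. The growth text in the RNA-seq labels describes HeLa cells, but the tables are of mouse genes, and 6 of 8 mESC markers had a mean of at least 10, with Sox2 between 3958.2 and 9653.9 in each library. Nanog was listed at 0 and Esrrb at 3.3 or less, and both have several accessions.

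Of the 8 genes, 4 have a single RefSeq accession and were measured: Nsd1, Setd2, Ash1l and Kdm2a. Whsc1 has 3 accessions, Whsc1l1 has 4, and Kdm2b and Kdm4a have 2 each. The authors counted reads by accession, and a read that fits several accessions of a gene has no single accession to be counted for. Among protein-coding genes with several accessions, 47.9% of 4884 had a summed normalized count under 1, against 24% of 15564 with 1 accession. The levels of Whsc1, Whsc1l1, Kdm2b and Kdm4a were therefore not measured as genes, and the values of their accessions cover only reads that fell to that accession alone. Of the 15 accessions of the 8 genes, 10 passed the filter of a mean normalized count of at least 10 and were tested among 11113.

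The sequences that the results refer to are promoter stretches of the 3 genes with an entry in the RefSeq promoter table (GRCm38.p6), each of 250 bases before a start, and a stretch of the Whsc1 gene marked by H3K27me3 in both genotypes. Capitals in the promoters mark GC boxes (GGGCGG, searched on both strands), which are present in 32.7% of all 32851 promoters of that table. Setd2 is shown because its level was lower in H1-TKO libraries, Kdm2b because one of its accessions was lower and it has several starts, and Kdm4a as a demethylase gene whose tested accession did not pass the test.
Setd2, chr9:110532347-110532596, plus strand: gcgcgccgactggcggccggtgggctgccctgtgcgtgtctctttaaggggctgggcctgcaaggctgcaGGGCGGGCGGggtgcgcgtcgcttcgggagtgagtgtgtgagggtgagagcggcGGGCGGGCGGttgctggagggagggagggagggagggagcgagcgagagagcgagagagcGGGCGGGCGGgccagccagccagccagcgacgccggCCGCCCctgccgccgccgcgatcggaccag
Kdm2b, outermost start, chr5:122989100-122989349, minus strand: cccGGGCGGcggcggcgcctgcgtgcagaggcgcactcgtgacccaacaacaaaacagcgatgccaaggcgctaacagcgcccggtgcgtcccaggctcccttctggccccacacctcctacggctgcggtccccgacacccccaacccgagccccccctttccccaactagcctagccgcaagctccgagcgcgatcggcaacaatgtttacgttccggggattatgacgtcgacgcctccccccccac
Kdm2b, internal start, chr5:122900351-122900600, minus strand: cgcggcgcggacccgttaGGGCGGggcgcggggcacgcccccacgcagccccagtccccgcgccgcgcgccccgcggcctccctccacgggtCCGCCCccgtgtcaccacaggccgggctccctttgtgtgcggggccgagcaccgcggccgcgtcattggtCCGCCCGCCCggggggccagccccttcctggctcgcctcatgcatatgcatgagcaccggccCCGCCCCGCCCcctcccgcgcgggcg
Kdm4a, chr4:118180044-118180293, minus strand: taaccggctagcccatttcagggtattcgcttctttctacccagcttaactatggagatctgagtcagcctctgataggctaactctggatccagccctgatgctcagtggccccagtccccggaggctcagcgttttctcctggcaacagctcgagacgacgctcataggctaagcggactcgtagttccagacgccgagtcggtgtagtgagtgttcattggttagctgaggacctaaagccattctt
The Setd2 stretch held 31 CpG dinucleotides and 7 GC boxes, and 94.8% of all promoters held fewer CpGs. The outermost Kdm2b stretch held 27 CpGs and 1 GC box, and the internal one 38 CpGs and 6 GC boxes. Kdm2b has 4 entries in the table, and those not printed are chr5:122988508-122988757 with 12 CpGs and 0 GC boxes, and chr5:122900368-122900617, which overlaps the internal stretch, with 36 CpGs and 5 GC boxes. The Kdm4a stretch held 12 CpGs and 0 GC boxes, against a median of 6 CpGs over all promoters. A CCAAT box (CCAAT, both strands, in 33.8% of promoters) was found in the Kdm4a stretch and in the internal Kdm2b stretch. Overlapping matches of the GC box were counted separately.

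Among the measured methyltransferase genes, Setd2 was lower in the libraries named H1-TKO, and Nsd1 and Ash1l did not pass the test. Kdm2a, the measured demethylase gene, was also lower. Setd2 and Kdm2a were each at about 0.7 times their WT level, with folds of 0.702 and 0.687. Called lower were thus 2 of the 4 measured genes and called higher 0 of 4, against 10.7% of the 11113 tested accessions called lower and 9.84% called higher (limma, Benjamini-Hochberg adjusted p under 0.05). All 4 genes had means over 100, where 13.9% of accessions were called lower and 12.0% higher. With 4 genes, these counts are a description of the genes and not of a pathway.

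Setd2, on chromosome 9 (NCBIM37 chr9:110435101-110521137, plus strand), had normalized counts of 3125.0 and 2668.0 in WT libraries against 2075.8 and 1976.9 in H1-TKO libraries. Both H1-TKO values lay below both WT values, and the gap between the genotypes exceeded that between replicates. The log2 fold change was −0.51 ± 0.13 (SE, n = 2 per genotype, 95% interval −0.82 to −0.2, limma adjusted p = 0.0342). These values rest on between 1877 and 4028 reads per library. The adjusted p was 0.0394 with edgeR and 0.0298 with DESeq2 on the recovered reads.

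Kdm2a, on chromosome 19 (chr19:4316170-4398266, minus strand), had normalized counts of 1595.8 and 1692.9 in WT against 1108.4 and 1150.1 in H1-TKO mESCs. Replicates were close in both genotypes, and no H1-TKO value reached a WT value. The log2 fold change was −0.54 ± 0.13 (SE, n = 2 per genotype, 95% interval −0.84 to −0.24, limma adjusted p = 0.0272). The adjusted p was 0.0314 with edgeR and 0.0262 with DESeq2. The calls of Setd2 and Kdm2a were both lost when H1-TKO replicate 1 was left out (adjusted p of 0.262 and 0.31) or H1-TKO replicate 2 (0.336 and 0.254), while the log2 fold changes stayed between −0.57 and −0.48 in these fits. Neither gene passed without a trend in the variance (adjusted p of 0.152 and 0.121) or without the filter (0.0696 and 0.0554), and Setd2 did not pass after quantile normalization (0.0513).

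Nsd1, on chromosome 13 (chr13:55311143-55419686, plus strand), had normalized counts of 6343.8 and 7122.7 in WT against 6085.2 and 5922.2 in H1-TKO mESCs. The genotypes did not overlap, but the gap between them was smaller than that between the WT libraries. The log2 fold change was −0.16 ± 0.11 (SE, n = 2, limma adjusted p = 0.336), with a 95% interval of −0.43 to 0.11. With WT replicate 1 left out the value was −0.25 and passed the test (limma adjusted p = 4.22e-04). Over all accessions 34.2% lay lower in both H1-TKO libraries than in both WT libraries, so that the 3 of 4 genes without overlap are to be read against that share.

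Ash1l, on chromosome 3 (chr3:88769734-88883295, plus strand), had normalized counts of 737.8 and 654.5 in WT against 815.3 and 713.0 in H1-TKO mESCs. WT replicate 1 lay above H1-TKO replicate 2, so the genotypes overlapped. The log2 fold change was 0.13 ± 0.16 (SE, n = 2, 95% interval −0.24 to 0.5, limma adjusted p = 0.57).

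**Figure D1:**
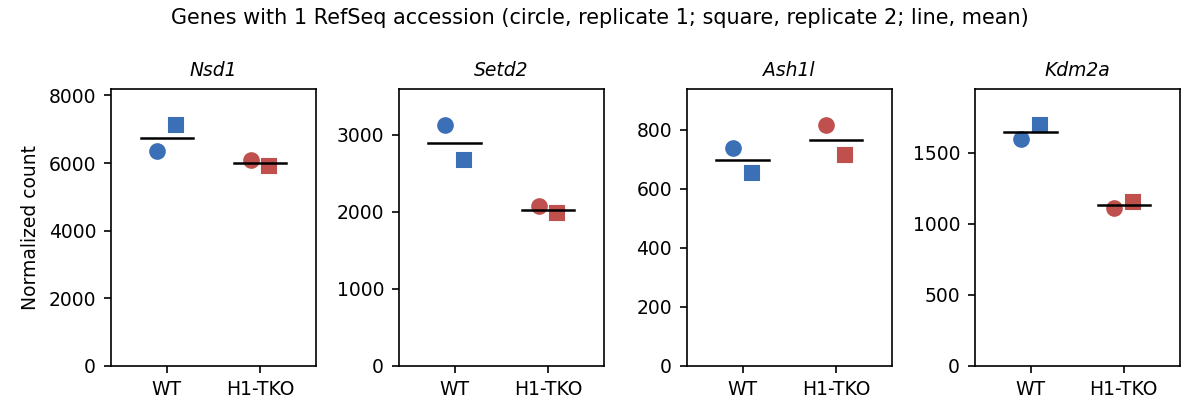
Normalized count of each gene with 1 accession in each library (vertical axes from 0), by genotype as named in the tables, with the mean of 2 libraries as a line. Setd2 and Kdm2a lie lower in both H1-TKO libraries, with means of 2026.3 against 2896.5 and 1129.3 against 1644.4, and the Ash1l values overlap.

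On a scale per length, as normalized count per kilobase of exon, the 4 measured genes kept 1 order in each library: Nsd1, Setd2, Kdm2a and Ash1l. Nsd1 stood at 483.4 and 542.8 per kilobase in WT against 463.7 and 451.3 in H1-TKO mESCs, and its mean level was above that of 92.8% of 15153 protein-coding genes with 1 accession. Setd2 followed at 296.6 and 253.2 in WT against 197.0 and 187.6 in H1-TKO mESCs. Kdm2a stood at 209.5 and 222.2 in WT against 145.5 and 151.0 in H1-TKO mESCs. Within a genotype the levels of these neighbours did not overlap, although the H1-TKO level of Setd2 lay below the WT level of Kdm2a. Ash1l had the lowest level, 65.5 and 58.1 per kilobase in WT against 72.4 and 63.3 in H1-TKO mESCs, still above 66.1% of the genes.

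Among the accessions of the genes that were not measured, one of Kdm2b was lower in H1-TKO libraries and the other 5 that were tested did not pass. Kdm2b lies on chromosome 5 (chr5:123320677-123465089, minus strand). Its accession NM_001003953 had normalized counts of 498.1 and 411.2 in WT against 108.0 and 155.9 in H1-TKO mESCs. Both H1-TKO values were far below the WT values, with a fold of 0.288 and a log2 fold change of −1.79 ± 0.25 (SE, n = 2, 95% interval −2.38 to −1.21, limma adjusted p = 0.00594). The call held with edgeR, with DESeq2 and with each library left out, where the log2 fold change was between −2.06 and −1.53, but not without a trend in the variance (adjusted p = 0.0572). The other accession, NM_013910, had 6.2 and 32.7 in WT against 12.1 and 6.3 in H1-TKO mESCs, with a log2 fold change of −0.67 ± 0.88 (SE, limma adjusted p = 0.612). The WT libraries were far apart on few reads, and the value was −1.78 without WT replicate 1 (limma adjusted p = 0.0485) and 0.44 without WT replicate 2. A lower level of the gene and a different use of its transcripts cannot be told apart from reads of one accession. The annotated exons of Kdm2b share 206 bp with A930024E05Rik and Orai1.

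Whsc1 (chr5:34163374-34240624, plus strand) had reads on 1 of its 3 accessions, NM_001177884, and NM_001081102 and NM_175231 were listed at 0 in all libraries. NM_001177884 had normalized counts of 203.3 and 76.4 in WT against 52.9 and 54.8 in H1-TKO mESCs. The spread came from WT replicate 1, which was far above the other libraries. The log2 fold change of −1.2 ± 0.47 (SE, n = 2) did not pass the test (limma adjusted p = 0.108). It passed with DESeq2 (−1.36, adjusted p = 0.0371) and with a replicate block (−1.2, limma adjusted p = 0.00997). The value was −1.9 with WT replicate 2 left out. It was −0.5 with WT replicate 1 left out (limma adjusted p = 0.298), and edgeR gave −1.37 (adjusted p = 0.086), so that its size rests on WT replicate 1. Its annotated exons share 1040 bp with the neighbouring gene Whsc2.

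Whsc1l1 (chr8:26712073-26830139, plus strand) had most reads on NM_001081269, with normalized counts of 549.3 and 310.9 in WT against 483.7 and 463.4 in H1-TKO mESCs. Both H1-TKO values lay between the WT values, and the log2 fold change was 0.2 ± 0.27 (SE, limma adjusted p = 0.628). Its direction depended on the WT library kept: it was 0.61 without WT replicate 1 (limma adjusted p = 4.55e-04) and −0.21 without WT replicate 2. NM_001308482 had 57.4 and 41.4 against 51.8 and 46.3, with a log2 fold change of 0.01 ± 0.38 (SE, limma adjusted p = 0.993). NM_001308481 had at most 3.2 and NM_001001735 was listed at 0.

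Kdm4a (chr4:117809562-117852648, minus strand) had normalized counts of 502.0 and 399.2 in WT against 382.3 and 400.2 in H1-TKO mESCs on NM_001161823. WT replicate 2 lay between the H1-TKO libraries. The log2 fold change was −0.19 ± 0.19 (SE, n = 2, 95% interval −0.63 to 0.24, limma adjusted p = 0.482), and it passed the test only without WT replicate 2 among the libraries left out in turn (−0.36, limma adjusted p = 0.047). NM_172382 had at most 5.5 in any library.

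**Figure D2:**
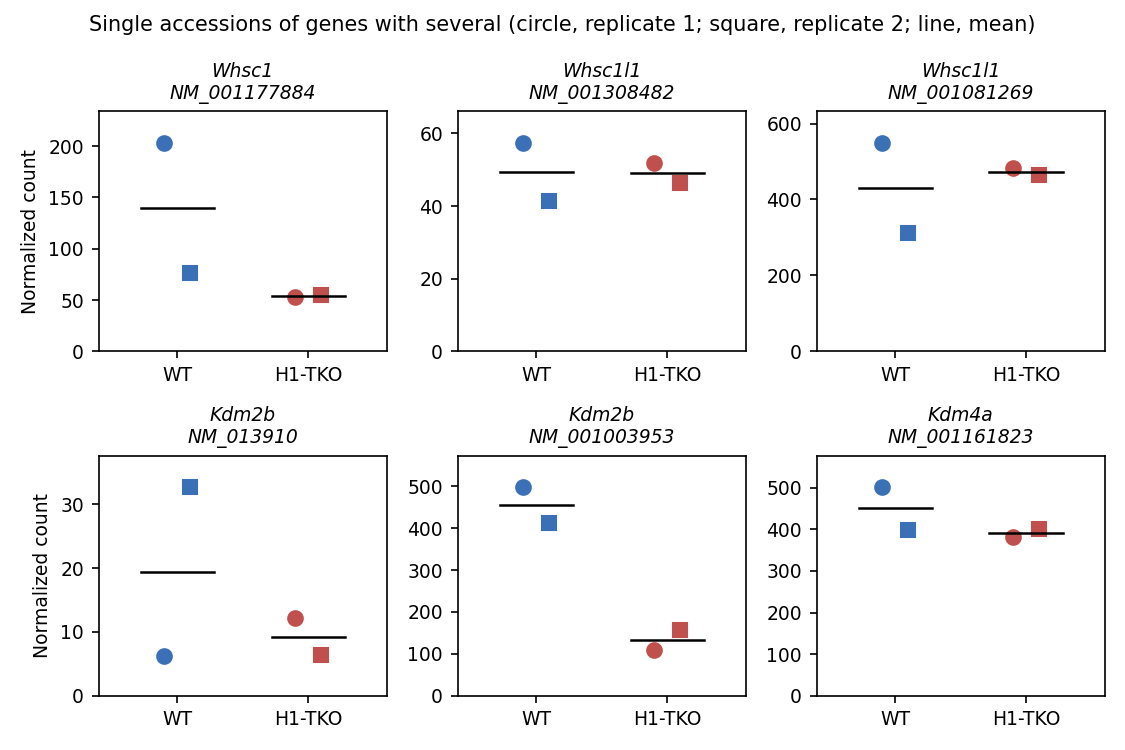
Normalized count in each library of the 6 tested accessions of Whsc1, Whsc1l1, Kdm2b and Kdm4a, with vertical axes from 0 and the mean of 2 libraries as a line. NM_001003953 of Kdm2b has a mean of 454.6 in WT and 131.9 in H1-TKO libraries, and WT replicate 1 stands apart for Whsc1.

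**Figure D3:**
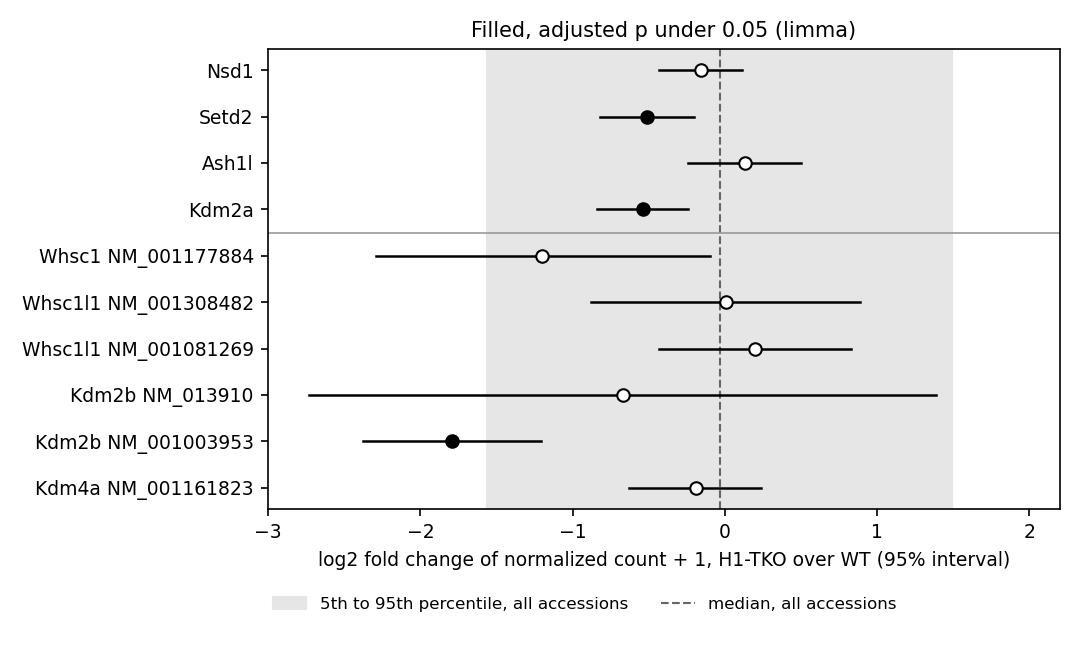
Log2 fold change of H1-TKO over WT with its 95% interval (limma) for the 10 tested accessions, with genes of 1 accession above the line. Setd2, Kdm2a and NM_001003953 of Kdm2b pass the test (filled), and 9 of 10 values lie within the range from the 5th to the 95th percentile of all 11113 accessions, −1.56 to 1.49.

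The median log2 fold change was −0.34 over the 4 measured genes and −0.03 over all accessions. Medians differed between chromosomes, with 0.5 on chromosome 1 and −0.37 on chromosome 11, but on the chromosomes of Setd2 and Kdm2a they were 0.05 and −0.09. With the shift of each chromosome removed from each library, an alternative added after the data were seen, Setd2 stood at −0.56 and Kdm2a at −0.47 (limma adjusted p of 0.0188 and 0.0334). The planned centring of log2 levels by chromosome gave −0.54 and −0.57 (limma adjusted p of 0.0318 and 0.0205). On chromosome 8, the chromosome of Whsc1l1, the median was −0.24. With the chromosome shift removed, its accessions NM_001081269 and NM_001308482 stood at 0.43 and 0.24 (limma adjusted p of 0.295 and 0.68). With the planned centring they stood at 0.35 and 0.16.

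The other genes of the H3K36 pathway are given here in lists. Of 8 further genes of H3K36 methylation or demethylation, 2 have several accessions, 1 was below the filter, and 0 of the 5 tested passed the test in either direction. Over all accessions 10.7% were called lower and 9.84% higher, so that 0 of 5 does not set the list apart. The median log2 fold change of these 5 genes was −0.2, against −0.03 over all accessions. The value farthest from 0 was that of Kdm8, a JmjC-domain gene, with normalized counts of 62.1 and 64.4 in WT against 29.7 and 42.1 in H1-TKO mESCs (−0.82 ± 0.38, SE, limma adjusted p = 0.161).

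Of 15 genes of proteins that bind H3K36 methylation, 10 have several accessions, and of the 5 tested 1 was called higher and 0 lower, with a median log2 fold change of 0.12, beside 9.84% of all accessions called higher. The one called higher was Brd1, a subunit of histone acetyltransferase complexes, with normalized counts of 1319.7 and 1361.3 in WT against 2199.2 and 2190.7 in H1-TKO mESCs. Its genotypes were far apart against replicates that nearly coincided (0.71 ± 0.12, SE, limma adjusted p = 0.0105). Phf19, a PRC2 partner that binds H3K36me3, had 287.8 and 400.3 in WT against 225.9 and 171.7 in H1-TKO mESCs (−0.78 ± 0.25, SE, limma adjusted p = 0.0639).

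Of 10 genes of RNA polymerase II elongation, the setting in which SETD2 acts, all were tested, 1 was called lower and 0 higher, with a median log2 fold change of −0.08. That is near the 10.7% of all accessions called lower. Supt6, a histone chaperone of the elongating polymerase, had normalized counts of 4839.5 and 6074.5 in WT against 2764.4 and 2754.2 in H1-TKO mESCs. Its level was lower in both H1-TKO libraries (−0.97 ± 0.14, SE, limma adjusted p = 0.00636). Polr2a, the large polymerase subunit, had 7167.0 and 13162.2 in WT against 5675.4 and 5366.1 in H1-TKO mESCs (−0.82 ± 0.25, SE, limma adjusted p = 0.0594). Both genes lie on chromosome 11, where WT replicate 2 also stood 0.31 (log2, median) above WT replicate 1, and with the chromosome shift removed Supt6 stood at −0.61 (limma adjusted p = 0.00905) and Polr2a at −0.45 (limma adjusted p = 0.115).

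Of 8 partners of KDM2B in PRC1.1, 7 were tested, 2 were called higher and 0 lower, with a median log2 fold change of 0.14, where 9.84% of all accessions were called higher. Pcgf1, the subunit that defines the complex, had normalized counts of 56.6 and 51.3 in WT against 148.7 and 145.3 in H1-TKO mESCs (1.43 ± 0.28, SE, limma adjusted p = 0.0157). Bcorl1, a corepressor, had 112.5 and 124.3 in WT against 264.4 and 235.9 in H1-TKO mESCs (1.07 ± 0.23, SE, limma adjusted p = 0.0194). Both were higher in each H1-TKO library. Skp1 had 6544.0 and 7850.2 against 8895.9 and 9327.3 and did not pass (0.35 ± 0.13, SE, limma adjusted p = 0.0911), but it lies on chromosome 11 and passed with the chromosome shift removed (0.71, limma adjusted p = 0.00475). In that fit 3 of the 7 genes were called higher and the median was −0.01. The share of all accessions called in that fit was not counted, so the 3 of 7 cannot be set against it.

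Of 7 genes of H3K27 methylation and demethylation, 5 were tested and 0 were called in either direction, where 10.7% of all accessions were called lower and 9.84% higher. Their median log2 fold change was 0.0. Ezh1, an H3K27 methyltransferase gene on chromosome 11 chosen here after its values were seen, had normalized counts of 772.7 and 862.8 in WT against 1090.8 and 1029.0 in H1-TKO mESCs. It did not pass (0.38 ± 0.14, SE, limma adjusted p = 0.101), but was called higher with the chromosome shift removed (0.74, limma adjusted p = 0.0112), where 1 of the 5 genes was called. No share over all accessions was counted for that fit. Kdm6a, an H3K27 demethylase gene, had normalized counts of 1353.8 and 1163.8 in WT against 954.2 and 824.7 in H1-TKO mESCs (−0.5 ± 0.15, SE, limma adjusted p = 0.0571).

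Sums of marker genes also differed between the libraries of the genotypes. These sums include genes with several accessions, among them Pou5f1, Nanog, Esrrb, Postn and Dcn, for which only part of the reads may be counted. The summed normalized count of 8 mESC markers was 23632.9 to 33057.8 in WT and 40131.7 to 40849.1 in H1-TKO libraries. Its members did not move together: Dppa5a, Sox2 and Klf4 lay higher in both H1-TKO libraries, Dppa5a at 6834.9 and 8611.6 in WT with 14185.6 and 14435.4 in H1-TKO. Tdgf1 lay lower, at 3502.8 and 3141.4 in WT with 2227.8 and 2474.0 in H1-TKO, and the genotypes overlapped for Pou5f1 and Zfp42. The sum of 7 fibroblast markers was 298.8 to 353.7 in WT and 510.1 to 576.1 in H1-TKO libraries, of which 3 had a mean of at least 10: Thy1 at 109.4 and 125.4 in WT with 449.5 and 510.8 in H1-TKO, Col1a1 at 195.5 and 148.3 in WT with 34.2 and 53.7 in H1-TKO, and Col1a2 at 40.3 or less. Postn and Dcn were listed at 0, a value that does not measure them. Of 6 markers of differentiated cells 1 had a mean of at least 10, with sums of 42.7 to 44.7 in WT and 26.3 to 33.0 in H1-TKO libraries. That marker, T, went against the sums, at 10.1 and 13.1 in WT with 22.0 and 13.7 in H1-TKO. The WT sums drew mostly on single libraries, with Cdx2 at 26.4 and 0.0 and Pax6, which has several accessions, at 0.8 and 20.7. The part of these differences in the values above was not tested. In bulk RNA, fewer cells of a type and less RNA per cell cannot be told apart.

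H3K27me3 peaks were listed near a start of 2 of the 8 genes, Whsc1 and Kdm2b, in both genotypes. Over 22035 protein-coding genes 12.7% had a peak within 1 kb of a start in the WT list and 11.5% in the H1-TKO list, where a gene has a median of 2 annotated starts against 7 for the 8 genes, and more starts give more places for a peak. Nsd1, Whsc1l1, Setd2, Ash1l, Kdm2a and Kdm4a had no peak within 1 kb or 5 kb of a start in either list. There was 1 list for each genotype and hence no replicate check. The MACS score of a peak is higher for a smaller p-value, and it started at 50.01 among the 6957 WT peaks and close to that among the 6262 H1-TKO peaks, with medians of 78.8 and 76.2. A score is not a level of H3K27me3 that can be compared between the lists.

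At Whsc1 the WT list held peaks at chr5:34161314-34162096, chr5:34163580-34164239 and chr5:34164600-34165307 (mm9), with scores of 56.3, 63.84 and 76.15. The first lay 1278 bp before the start of the gene and the others inside it, outside its exons. The H1-TKO list held a peak at chr5:34161790-34162382 with a score of 50.92 and one at chr5:34163426-34164602 with a score of 109.63, which overlapped the 2 inner WT peaks, the second only at its edge. The upstream peaks overlapped each other as well. Apart from that edge, marked in both genotypes were a stretch of 307 bp before the gene and a longer one of 660 bp inside it. The middle 300 bases of the longer stretch (NCBIM37, the same build as mm9, plus strand), 386 bp after the start of the gene, held 48 CpGs, given in capitals.
Whsc1, chr5:34163760-34164059: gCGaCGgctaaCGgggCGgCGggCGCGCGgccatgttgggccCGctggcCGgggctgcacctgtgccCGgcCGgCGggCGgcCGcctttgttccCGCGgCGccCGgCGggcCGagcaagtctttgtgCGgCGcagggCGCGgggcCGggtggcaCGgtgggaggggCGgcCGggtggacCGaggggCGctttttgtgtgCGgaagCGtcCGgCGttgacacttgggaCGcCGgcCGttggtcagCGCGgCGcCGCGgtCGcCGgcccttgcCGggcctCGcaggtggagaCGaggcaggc

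At Kdm2b the peaks lay inside the gene, far from its outermost start, near starts of shorter transcripts. The internal Kdm2b start printed above is in another build (GRCm38.p6) and was not placed against these peaks. The WT list held chr5:123403481-123403884 with a score of 59.33, at 355 bp from the nearest start. The H1-TKO list held chr5:123402553-123402851 and chr5:123402881-123403192, with scores of 62.24 and 68.5. No Kdm2b peak of one genotype overlapped one of the other, and all 3 scores lay below the medians of their lists.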

How the data were processed

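Poly(A) RNA-seq of 2 WT and 2 H1-TKO mESC libraries and 1 H3K27me3 ChIP-seq peak list per genotype were used. The study describes the RNA-seq duplicates as independent. Read pairs were aligned by the authors with Subread (mm9), and unique reads were counted with featureCounts and scaled with DESeq2. The deposited signal is this normalized count for 34010 RefSeq accessions, of which 33650 had a symbol in a RefSeq table (GRCm38.p6, names only). All values (100%, tolerance 0.01) were whole reads times a library factor. The deposited score of a peak comes from MACS after alignment with bowtie2.

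limma 3.58.1 in R 4.3.3 was run on log2(normalized count + 1) with a trend, over 11113 accessions with a mean of at least 10. Changes of low genes are understated on this scale. Genes were placed in GENCODE M1 (NCBIM37). The limma step was tested on counts simulated with 1 relative spread for all genes and libraries. That test does not cover the unequal spread of the WT and H1-TKO libraries. The members and lists were chosen with earlier results of these data known. Named are all members, the knocked-out genes, and of each list the called genes and the largest change not called. Alternatives were other pseudocounts, filters, scalings, edgeR 4.0.16 and DESeq2 1.42.0 on recovered reads, a replicate block, centring of log2 levels by chromosome, removal of the chromosome shift (the median deviation from the 4-library mean, added after the data were seen), left-out libraries and other peak rules.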

Additional observations from a re-analysis of the deposited data

How the results depend on the processing

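Of 157 refits of the fold changes of the tested accessions, 135 kept their direction and side of the threshold, 10 fell short of it, 7 newly passed it and 5 reversed. The reversals were Nsd1 after quantile normalization (0.0), NM_001308482 without WT replicate 2 (−0.22) or H1-TKO replicate 1 (−0.07), NM_001081269 without WT replicate 2 (−0.21) and NM_013910 without WT replicate 2 (0.44). With a library left out, these 3 accessions ranged from −0.22 to 0.24, from −0.21 to 0.61 and from −1.78 to 0.44. The cause was not tested. Of the 4 measured genes 2 were called lower, against 0 without the filter, 0 without a trend, 1 after quantile normalization and 0 to 3 with a library left out. Over all accessions 1188 were lower and 1094 higher, against 697 and 624 without the filter, 37 and 43 without a trend, and 386 to 2786 and 199 to 2682 with a library left out, where the lone library is assumed to vary like the other genotype. With peaks of a score of at least 100, 0 of the 8 genes had a WT peak near a start and 1 had an H1-TKO peak. That single peak was at Whsc1, and the share of all genes at this score was not counted. Values of accessions under about 100 reads rest on few reads, and the effect of depth was not tested.

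Deviations of same-numbered libraries from their genotype means were not correlated over accessions (correlation 0.01, 2 pairs). With 2 libraries per genotype this cannot show whether same-numbered libraries shared a preparation. With a replicate block 1778 accessions were lower and 1521 higher, 2 of the 4 measured genes were called lower and 0 higher, and NM_001177884 of Whsc1 passed (−1.2, limma adjusted p = 0.00997).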
